A study of Mus musculus with 2 samples.

Results

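The genes of the major histocompatibility complex (MHC) and of antigen presentation were examined in long-read RNA-seq of the mouse adrenal gland. Members were all genes whose symbol starts with H2-, together with Cd74, B2m, Tap1, Tap2, Tapbp, Ciita, Nlrc5, Calr, Canx and Erap1. This gave 36 genes of 18177 annotated genes with reads, of which 35 had reads in replicate 1, 28 in replicate 2 and 27 in both. Of 45 annotated H2- symbols, 26 had reads and 19 did not, and 29 of the 36 members lie on chromosome 17. The tissue came from 14-day-old males of B6CASTF1/J, the F1 hybrid of C57BL/6J and CAST/EiJ, with no treatment or allele named in the labels. The series holds 1 group with 2 biological replicates, and each level below is given for replicate 1 and then replicate 2. Both libraries carry the same donor label and a label that names a set of 3 males, so it is not shown that they came from separate animals. The p-values and intervals therefore compare these libraries, cover counting error only and may reflect technical spread.

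MHC class I molecules are pairs of a heavy chain and the light chain beta-2-microglobulin, and they show peptides made inside the cell to CD8 T cells. Peptides enter the endoplasmic reticulum through the TAP transporter, are trimmed by Erap1 and are loaded with the help of tapasin (Tapbp), calreticulin and calnexin. MHC class II molecules are pairs of an alpha and a beta chain that show peptides from endosomes to CD4 T cells. The invariant chain Cd74 guides them there and the H2-DM proteins exchange its last fragment for a peptide. Class I is made by nearly all nucleated cells, whereas class II is made mainly by B cells, dendritic cells and macrophages under the transactivator Ciita.

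Replicate 1 held 964679 reads and replicate 2 held 984958 reads outside the spike-in controls, and levels are in CPM, reads scaled to a library of 1000000 such reads. A long read is counted once whatever the length of its transcript, so CPM values of different genes are set side by side without division by length. A count of 0 allows up to 3 reads, or 3.11 CPM for replicate 1 and 3.05 CPM for replicate 2. The adrenal identity of the tissue was checked with marker genes. The summed level of 6 adrenal cortex markers was 39418 CPM in replicate 1 against 39266 CPM in replicate 2, and that of 5 chromaffin markers was 8172 and 7942 CPM. The near-equal sums cover genes that differed by the exact binomial test given below. Of the 6 cortex markers, 3 were called higher in replicate 1 and 1 (Cyp11a1, ratio 0.859) higher in replicate 2. Of the 5 chromaffin markers, 2 were called higher in replicate 1. The same test called 9.17% of all genes tested. The libraries stood apart in markers of other tissues. The 8 hepatocyte markers summed to 754 CPM in replicate 1 against 15658 CPM in replicate 2, and 5 markers of lymph node stroma to 151 CPM in replicate 1 against 3.05 CPM in replicate 2.

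Together the members took 2310 CPM in replicate 1 against 1665 CPM in replicate 2, which is 0.231% and 0.167% of the reads. The class II chains and Cd74 were higher in replicate 1, H2-Q10 was higher in replicate 2, and most of the class I pathway was not called. Of the 23 members with at least 10 reads over both libraries, 8 were higher in replicate 1 and 1 was higher in replicate 2 by a two-sided exact binomial test with Benjamini-Hochberg adjustment over all genes tested. The same test called 9.17% of all 11094 genes tested, 4.81% as higher in replicate 1 and 4.35% as higher in replicate 2. On the log2 scale the median ratio (replicate 1 over replicate 2, 0.5 reads added to each count) was 0.54 over the tested members and 0.15 over all genes tested. With counts of 0 set to 3 reads these medians were 0.55 and 0.16. In these bulk samples, fewer cells of a type and less RNA per cell cannot be told apart.

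**Figure D1:**
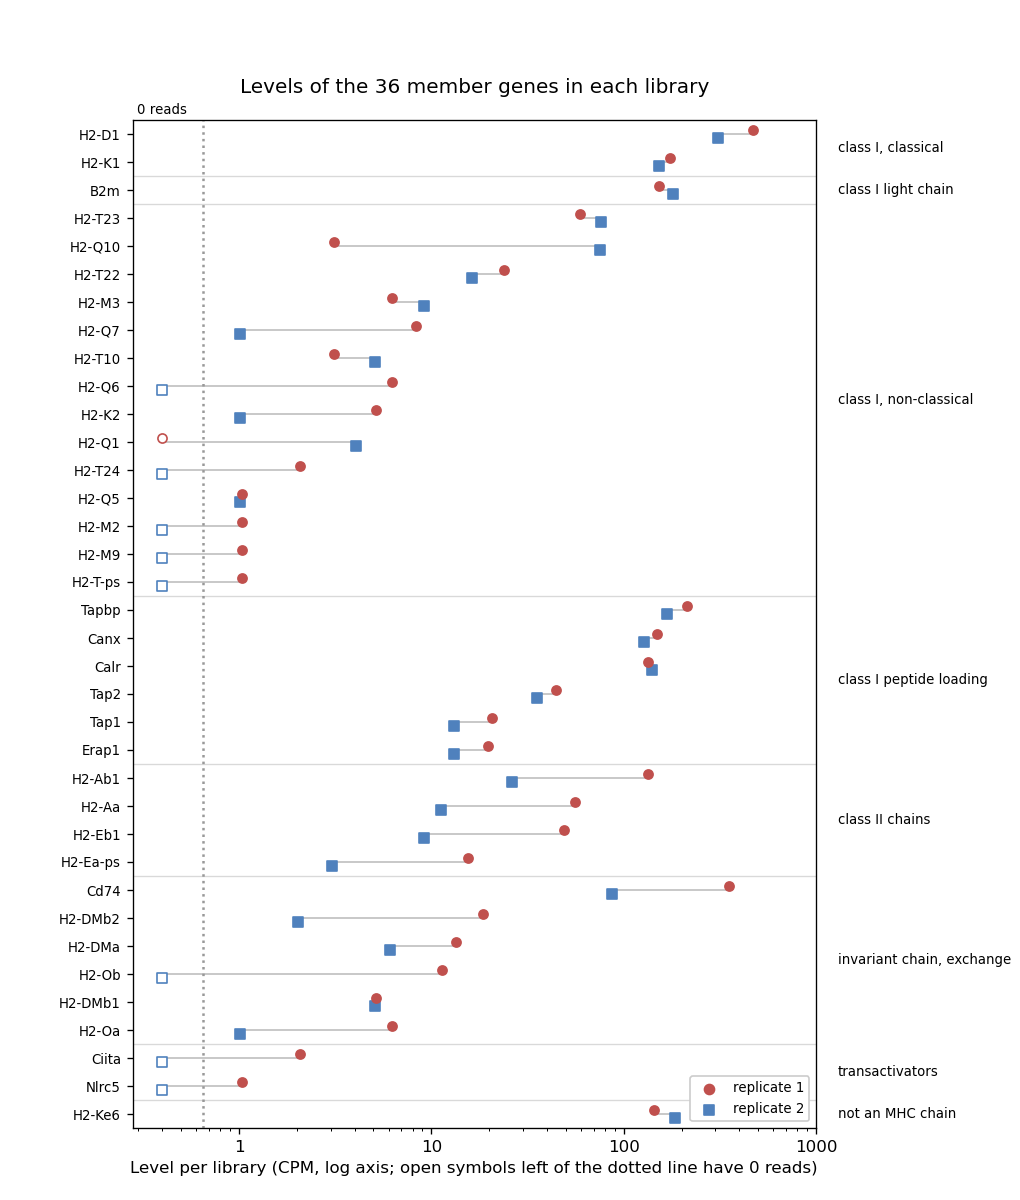
Levels of the 36 members in each library in CPM on a log axis, grouped by role, with circles for replicate 1 and squares for replicate 2. Open symbols left of the dotted line mark libraries with 0 reads. The class II chains and Cd74 lie further to the right in replicate 1, H2-Q10 lies at 3.11 CPM in replicate 1 against 75.1 CPM in replicate 2, and the loading genes lie close together.

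Of the class II chain genes, 4 of 4 tested were higher in replicate 1. H2-Ab1, the beta chain of the I-A molecule (chr17:34257689-34269419 of mm10, plus strand), had 129 reads in replicate 1 and 26 reads in replicate 2, or 134 and 26.4 CPM. Its ratio of replicate 1 over replicate 2 was 5.07 with an exact 95% interval of 3.30 to 8.05 (exact binomial adjusted p = 3.54e-16). H2-Aa, the alpha chain that pairs with it (chr17:34282744-34287823, minus strand), had 54 reads (56.0 CPM) in replicate 1 and 11 reads (11.2 CPM) in replicate 2. The ratio was 5.01 with an interval of 2.59 to 10.6 (exact binomial adjusted p = 1.41e-06). The chains of this heterodimer stood at nearly equal ratios, and in each library H2-Ab1 had more reads than H2-Aa.

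H2-Eb1, the beta chain of the I-E molecule (chr17:34305867-34316674, plus strand), had 47 reads (48.7 CPM) in replicate 1 and 9 reads (9.14 CPM) in replicate 2. Its ratio was 5.33 with an interval of 2.58 to 12.4 (exact binomial adjusted p = 5.34e-06). The I-E alpha chain gene appears as H2-Ea-ps, annotated as a polymorphic pseudogene (chr17:34341959-34344645, minus strand). It is known as inactive in the haplotype of C57BL/6, where a deletion removed its promoter, and active in several other haplotypes. It had 15 reads (15.5 CPM) in replicate 1 and 3 reads (3.05 CPM) in replicate 2, for a ratio of 5.11 with an interval of 1.44 to 27.5 (exact binomial adjusted p = 0.0458). This call was lost with TMM or DESeq2 scaling (adjusted p = 0.0891 and 0.0888, exact binomial test). Alleles were not separated in the deposited counts, so the haplotype of these reads was not determined. Of its reads, 8 in replicate 1 and 2 in replicate 2 fell into models that hold only the 5′ part of an annotated chain.

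Cd74, the invariant chain (chr18:60803848-60812652, plus strand), was the most abundant member of the class II pathway. It had 340 reads (352 CPM) in replicate 1 and 86 reads (87.3 CPM) in replicate 2. The ratio was 4.04 with an interval of 3.18 to 5.18 (exact binomial adjusted p = 1.29e-35). Summed over H2-Aa, H2-Ab1, H2-Eb1 and Cd74 there were 570 reads (591 CPM) in replicate 1 and 132 reads (134 CPM) in replicate 2, a ratio of 4.41 (3.64 to 5.37).

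Among the peptide exchange genes, H2-DMb2 and H2-Ob were called and H2-DMa and H2-DMb1 were not. H2-DMb2, a beta chain of H2-DM, had 18 reads in replicate 1 and 2 reads in replicate 2, for a ratio of 9.19 with an interval of 2.20 to 81.7 (exact binomial adjusted p = 0.00430). H2-DMb1, its close copy beside it on the chromosome, had 5 reads in each library, and the division of reads between such copies is uncertain. H2-DMa, the alpha chain, had 13 reads in replicate 1 and 6 reads in replicate 2 (ratio 2.21, interval 0.784 to 7.10, adjusted p = 0.398, exact binomial test). H2-Ob, the beta chain of H2-O, which holds back H2-DM in B cells, had 11 reads in replicate 1 and 0 in replicate 2. It was at least 3.74-fold higher in replicate 1, with replicate 2 set to 3 reads, and the lower limit of its exact 95% interval was 2.56 (adjusted p = 0.00841, exact binomial test). Of those 11 reads, 6 were unspliced reads of a single model, and with multi-exon models alone the gene had too few reads for a test. H2-Oa, the partner of H2-Ob, had 6 reads in replicate 1 and 1 read in replicate 2 and was not tested.

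The transactivators were near the limit of detection. Ciita had 2 reads in replicate 1 and 0 in replicate 2, and Nlrc5, the class I counterpart of Ciita, had 1 read in replicate 1 and 0 in replicate 2. No difference between the libraries was detectable for either gene at this depth.

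**Figure D2:**
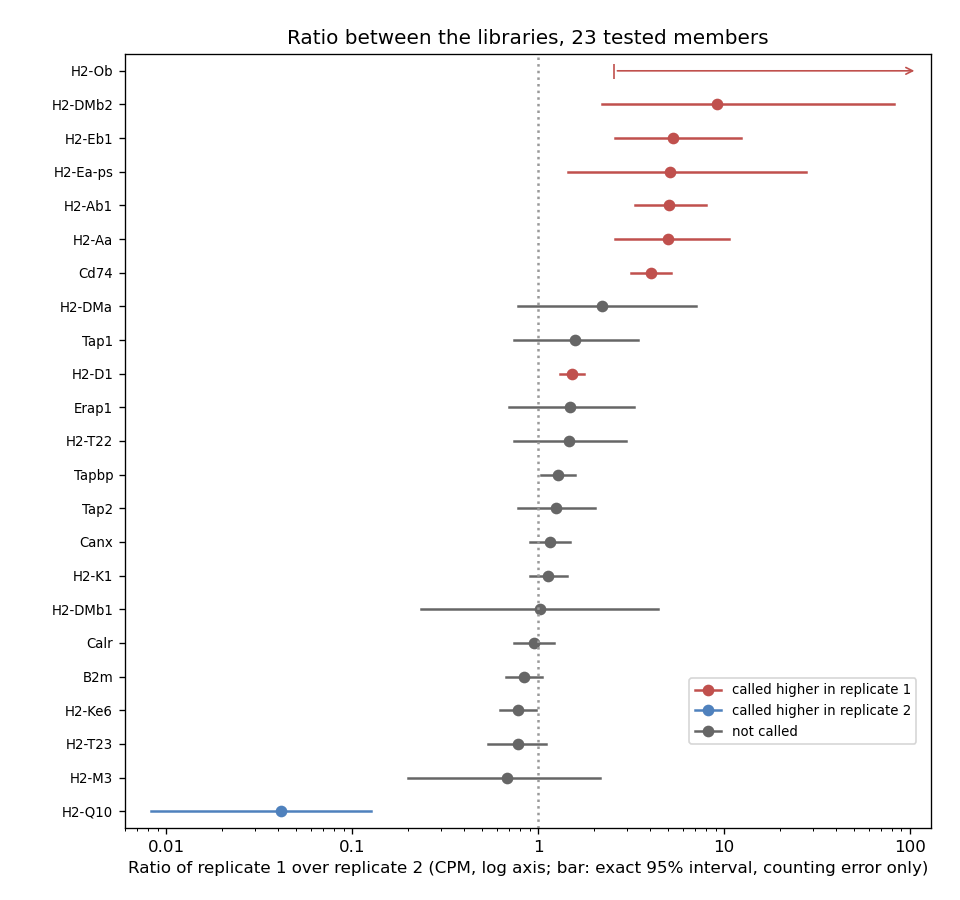
Ratio of replicate 1 over replicate 2 for the 23 tested members on a log axis, with exact 95% intervals that cover counting error only. Red marks members called higher in replicate 1, blue the member called higher in replicate 2 and grey those not called, and the arrow marks H2-Ob, which had 0 reads in replicate 2. The called class II genes other than H2-Ob lie between 4.04 and 9.19, H2-D1 at 1.53 and H2-Q10 at 0.0414.

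The promoters of H2-Aa and H2-Eb1 are shown because both genes were called higher in replicate 1 and because class II promoters are known to share an X box and a Y box. The RefSeq promoter table (GRCm38.p6) held an entry for 25 of the 36 members. The letters GCAAC, part of the X box, followed on the same strand after 15 to 30 bases by ATTGG, the reverse complement of the CCAAT of the Y box, were searched in the 250 bases before each start. These letters and the spacing were chosen with the sequences in view, and a link of the motifs to the ratios between libraries was not tested. The pair was found upstream of 4 of 7 class II chain and exchange members with an entry. It was found in 0 of the other 18 members with an entry and in 0.368% of all 32851 promoters. Of the 4, H2-Aa, H2-Eb1 and H2-Ob were called and H2-Oa was not tested. Of the class II members with an entry but no pair, H2-DMb2 was called and H2-DMa and H2-DMb1 were not. The called genes Cd74, H2-Ab1 and H2-Ea-ps had no entry. The gap between the motifs was 28 bases in H2-Aa and 27 bases in H2-Eb1. The 200 bases before the start of H2-Aa (chr17:34287824-34288023, minus strand) and of H2-Eb1 (chr17:34305667-34305866, plus strand) are printed 5′ to 3′. Capitals mark the pair and any ATTGG or CCAAT.
H2-Aa upstream: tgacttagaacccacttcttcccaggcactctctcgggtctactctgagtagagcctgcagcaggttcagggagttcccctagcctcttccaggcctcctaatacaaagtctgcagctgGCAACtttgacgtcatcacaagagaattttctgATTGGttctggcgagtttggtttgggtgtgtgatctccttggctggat
H2-Eb1 upstream: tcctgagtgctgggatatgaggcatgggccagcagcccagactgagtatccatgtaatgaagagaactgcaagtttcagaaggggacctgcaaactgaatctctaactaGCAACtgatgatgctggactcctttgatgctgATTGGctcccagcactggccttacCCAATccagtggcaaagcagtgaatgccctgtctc

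Marker lists of other cell types were compared between the libraries, which give a single contrast. Their counts of calls stand beside 9.17% called of all 11094 genes tested, 4.81% as higher in replicate 1. Lymph node stroma markers (Ccl21a, Glycam1, Ccl19, Cxcl13 and Madcam1) had 146 reads in replicate 1 and 3 reads in replicate 2, and 4 of 4 tested were higher in replicate 1. These 4 had 0 to 2 reads each in replicate 2 and passed the filter of 10 reads through replicate 1 alone. The count of 4 of 4 is therefore a description only. Ccl21a and Ccl19 are each annotated as several genes of the same symbol, and the reads are those of the gene with the most. B cell markers summed to 122 CPM in replicate 1 against 41.6 CPM in replicate 2, with reads for 8 of 9 genes in replicate 1 and 5 of 9 in replicate 2 and with Pax5 at 0 in both. Of 4 tested, Cd79a, a chain of the B cell receptor complex, was called, with 31 reads in replicate 1 and 9 reads in replicate 2 (ratio 3.52, adjusted p = 0.00763, exact binomial test). T cell markers summed to 74.6 CPM in replicate 1 against 15.2 CPM in replicate 2, with reads for 10 of 11 genes and 8 of 11 genes. Of 2 tested, the kinase Lck was called, with 28 reads in replicate 1 and 6 reads in replicate 2.

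Dendritic cell, macrophage and endothelial markers are given next. With 9.17% of all 11094 genes tested called, the counts of calls in these lists do not set them apart. Of 8 dendritic cell markers, 5 (Itgax, Flt3, Xcr1, Clec9a and Cd209a) were at 0 in both libraries, and 0 of 2 tested were called. That list summed to 36.3 CPM in replicate 1 against 20.3 CPM in replicate 2. The tested genes were Ccr7, with 9 reads in replicate 1 and 2 reads in replicate 2 (ratio 4.59, interval 0.951 to 43.7), and Zbtb46, with 25 reads in replicate 1 and 18 reads in replicate 2. Macrophage markers summed to 334 CPM in replicate 1 against 194 CPM in replicate 2, and 1 of 8 tested was called, the lysozyme gene Lyz2 with 174 reads in replicate 1 and 58 reads in replicate 2. The complement genes C1qa, C1qb and C1qc, made by tissue macrophages, had 43, 28 and 25 reads in replicate 1 and 32, 32 and 28 reads in replicate 2. Csf1r, the receptor of the macrophage growth factor, had 24 reads in replicate 1 and 10 reads in replicate 2 (ratio 2.45, interval 1.13 to 5.74) and was not called (adjusted p = 0.121, exact binomial test). Endothelial markers summed to 534 CPM in replicate 1 against 409 CPM in replicate 2, with 1 of 7 called (Tie1, higher in replicate 1). The part of any of these cells in the class II difference was not tested.

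**Figure D3:**
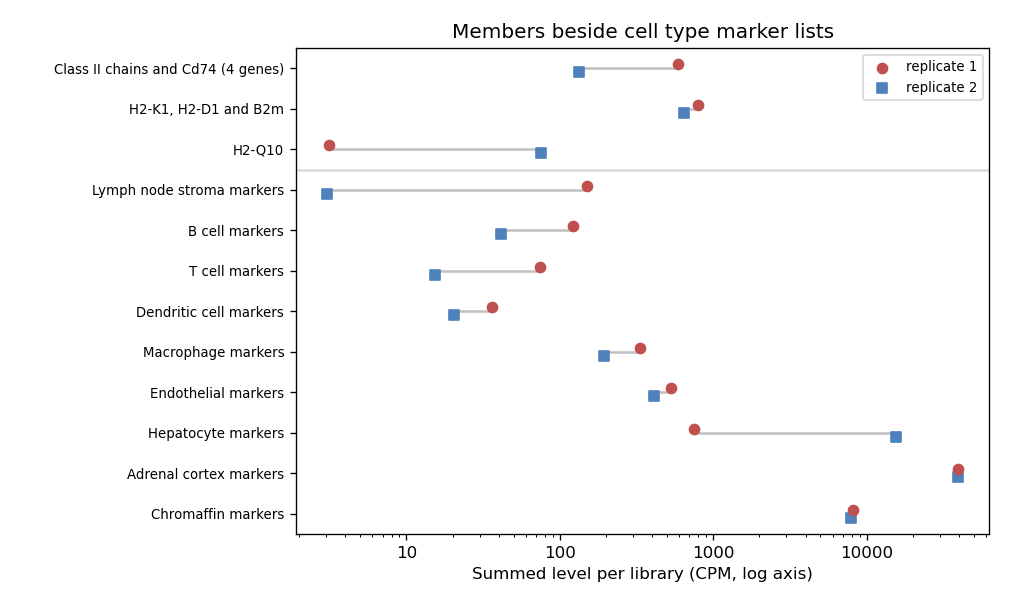
Summed levels in CPM on a log axis of 3 sets of members (above the line) and of cell type marker lists (below it), with circles for replicate 1 and squares for replicate 2. The class II set and, by less, the class I set lie further to the right in replicate 1. So do the lymph node stroma, B cell, T cell, dendritic cell, macrophage and endothelial markers. H2-Q10 and hepatocyte markers lie further to the right in replicate 2. The sums of the adrenal cortex and chromaffin lists nearly coincide, although single genes of both lists were called.

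The classical class I genes were more even. H2-D1 (chr17:35262730-35267499, plus strand) was the most abundant of all members, with 455 reads (472 CPM) in replicate 1 and 304 reads (309 CPM) in replicate 2. Its ratio was 1.53 with an interval of 1.32 to 1.77 (exact binomial adjusted p = 4.65e-07), so it was called, at a smaller ratio than any called class II gene. H2-K1, the other classical heavy chain (chr17:33996017-34000347, minus strand), had 168 reads (174 CPM) in replicate 1 and 151 reads (153 CPM) in replicate 2. The ratio was 1.14 with an interval of 0.906 to 1.42 (exact binomial adjusted p = 0.617). B2m, the light chain (chr2:122147686-122153083, plus strand), had 147 reads (152 CPM) in replicate 1 and 178 reads (181 CPM) in replicate 2, for a ratio of 0.843 with an interval of 0.673 to 1.06 (exact binomial adjusted p = 0.440).

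Summed over H2-K1, H2-D1 and B2m the level was 798 CPM in replicate 1 against 643 CPM in replicate 2, a ratio of 1.24 (1.12 to 1.38). The mean levels of B2m (167 ± 20.0 CPM, SD, n = 2) and H2-K1 (164 ± 14.7 CPM, SD, n = 2) differed by less than their spread between libraries. This depended on the models counted. With known models alone, scaled to the reads in known models, the mean levels were 224 CPM for B2m and 135 CPM for H2-K1. These values have a smaller denominator than the levels above and compare only with each other. Heavy chain genes are highly polymorphic and similar to each other, and the reference carries the C57BL/6 sequence, so the division of reads among H2-D1, H2-K1 and the H2-Q and H2-T genes is uncertain.

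H2-Q10 was the only tested member called higher in replicate 2. It encodes a secreted class I heavy chain known from mouse liver and serum (chr17:35470089-35474563, plus strand). It had 3 reads (3.11 CPM) in replicate 1 and 74 reads (75.1 CPM) in replicate 2. The ratio of replicate 1 over replicate 2 was 0.0414 with an interval of 0.00835 to 0.126 (exact binomial adjusted p = 1.61e-16), or 24.2 (7.95 to 120) as replicate 2 over replicate 1. Of the hepatocyte markers, 8 of 8 were also called higher in replicate 2, against 4.35% of all genes tested. Their ratios of replicate 2 over replicate 1 ran from 16.8 for Fgb, a fibrinogen chain, to 27.9 for Apoa2, a lipoprotein component, with 19.4 for Alb, the gene of serum albumin. The part of liver RNA in the H2-Q10 difference was not tested. Of 6 tested class I-like genes outside the H2- names, 1 was called, and the list summed to 486 CPM in replicate 1 against 488 CPM in replicate 2. That gene, Azgp1, which encodes a secreted protein with a class I fold, had 0 reads in replicate 1 and 67 reads in replicate 2 and was at least 21.9-fold higher in replicate 2, with replicate 1 set to 3 reads (upper limit of the ratio of replicate 1 over replicate 2, 0.0578). The ratios of the genes not called were 0.867 for Procr, 1.08 for Cd1d1, 1.22 for Fcgrt, 1.63 for Hfe and 2.45 for Mr1.

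The upstream sequences of H2-K1 and H2-Q10 are shown to compare related heavy chain genes, which stood at ratios of 1.14 and 0.0414. Both libraries come from the same hybrid strain, and a link of these sequences to the ratios between libraries was not tested. H2-K1 has several starts in the table, and the window of the most upstream start is used (chr17:34000348-34000547, minus strand), beside that of H2-Q10 (chr17:35469889-35470088, plus strand). The letters ATTGG were found on either strand in the 250 bases before a start of 23 of 25 members with an entry and in 33.8% of all promoters. A member counted if any of its starts had the letters, whereas the 33.8% counts each promoter entry. H2-Q10 and Erap1 were the members without it. In an alignment of the 250-base windows of H2-K1 and H2-Q10, 158 of 182 aligned bases were identical (86.8%). In H2-K1 the capitals mark ATTGG, and the H2-Q10 window holds no match on either strand.
H2-K1 upstream: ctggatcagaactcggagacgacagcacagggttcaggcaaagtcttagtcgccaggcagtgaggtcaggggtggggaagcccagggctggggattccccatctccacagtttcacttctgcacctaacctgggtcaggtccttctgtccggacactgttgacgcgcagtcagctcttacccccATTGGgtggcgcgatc
H2-Q10 upstream: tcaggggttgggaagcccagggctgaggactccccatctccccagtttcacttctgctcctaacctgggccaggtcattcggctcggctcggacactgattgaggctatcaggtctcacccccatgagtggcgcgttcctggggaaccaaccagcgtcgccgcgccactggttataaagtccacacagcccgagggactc

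The other non-classical heavy chains were not called. H2-T23, which encodes Qa-1 and shows leader peptides to receptors on natural killer cells, had 57 reads (59.1 CPM) in replicate 1 and 75 reads (76.1 CPM) in replicate 2 (ratio 0.776, interval 0.540 to 1.11). H2-T22, a ligand of some gamma delta T cell receptors, had 23 reads in replicate 1 and 16 reads in replicate 2 (ratio 1.47, interval 0.742 to 2.97). H2-M3, which binds peptides that start with formylmethionine, had 6 reads in replicate 1 and 9 reads in replicate 2. The 13 members below the limit for a test had 1 to 9 reads over both libraries. Of these, 10 had more reads in replicate 1, 1 had equal reads and 2 (H2-Q1 and H2-T10) had more in replicate 2. H2-Q6 and H2-Q7, near-identical Qa-2 genes, had 6 and 8 reads in replicate 1 and 0 and 1 read in replicate 2.

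The peptide supply and loading genes gave 0 calls among 6 tested with the exact binomial test, and 1 of the 6 (Tapbp) had an unadjusted p under 0.05. The test called 9.17% of all 11094 genes tested, so 0 calls among 6 do not set these genes apart. Tapbp, the tapasin that bridges class I to TAP (chr17:33915899-33929292, plus strand), had 207 reads (215 CPM) in replicate 1 and 165 reads (168 CPM) in replicate 2. The ratio was 1.28 with an interval of 1.04 to 1.58 (exact binomial adjusted p = 0.141). Canx, the chaperone calnexin, had 143 reads in replicate 1 and 126 reads in replicate 2 (ratio 1.16, interval 0.906 to 1.48). Calr, the chaperone calreticulin, had 129 reads in replicate 1 and 138 reads in replicate 2 (ratio 0.954, interval 0.745 to 1.22). The mean levels of these 3 genes ran from 137 to 191 CPM, a range that includes those of H2-K1 and B2m. With known models alone, scaled to the reads in known models, they ran from 134 to 215 CPM, and B2m, at 224 CPM, lay above them.

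The transporter and trimming genes were lower. Tap2 had 43 reads (44.6 CPM) in replicate 1 and 35 reads (35.5 CPM) in replicate 2, and its partner Tap1 had 20 reads (20.7 CPM) in replicate 1 and 13 reads (13.2 CPM) in replicate 2. Erap1, the aminopeptidase that trims peptides in the endoplasmic reticulum, had 19 reads (19.7 CPM) in replicate 1 and 13 reads (13.2 CPM) in replicate 2. In each of the 3 genes the interval of the ratio included 1. Tap1, Erap1 and H2-DMa overlap Psmb9, Cast and Brd2 on the opposite strand, and reads were counted by the strand of their model. H2-Ke6, a short-chain dehydrogenase gene that carries an H2- symbol only for its place in the MHC, had 139 reads (144 CPM) in replicate 1 and 182 reads (185 CPM) in replicate 2. Its ratio was 0.780 with an interval of 0.621 to 0.978 (exact binomial adjusted p = 0.184). It was called higher in replicate 2 with TMM scaling (adjusted p = 0.0255, exact binomial test), and it overlaps Gm20427 on the same strand, which leaves uncertain how reads were divided between them.

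Genes that work beside the members were described from lists, whose counts of calls stand beside 9.17% called of all 11094 genes tested. The immunoproteasome and its activator (Psmb8, Psmb9, Psmb10, Psme1 and Psme2), which produce peptides for class I, gave 0 calls of 5 tested with the exact binomial test, and each interval included 1. Their reads summed to 462 in replicate 1 and 463 in replicate 2. Of 5 loading and quality control genes outside the members, 1 was called, the chaperone Hspa5, with 1023 reads in replicate 1 and 806 reads in replicate 2 (ratio 1.30, interval 1.18 to 1.42). Of 7 endosomal proteolysis genes, 2 were higher in replicate 1. Ctss, the protease that trims the invariant chain in antigen-presenting cells, had 17 reads in replicate 1 and 2 reads in replicate 2 (ratio 8.68, interval 2.06 to 77.4, adjusted p = 0.00713, exact binomial test). Ctsd, a general lysosomal protease, had 1294 reads in replicate 1 and 1089 reads in replicate 2 (ratio 1.21, interval 1.12 to 1.32).

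Of 6 tested class II promoter factors (among them Rfx5, Rfxank and Rfxap, which bind the X box, and Nfyb and Nfyc, which bind the Y box), 0 were called, and each interval included 1. Of 13 tested genes of interferon gamma signalling, the pathway that induces Ciita and class I, 2 were called. Both encode the receptor. Ifngr1 had 109 reads in replicate 1 and 54 reads in replicate 2 (ratio 2.06, interval 1.47 to 2.91, adjusted p = 2.96e-04, exact binomial test). Ifngr2 had 87 reads in replicate 1 and 50 reads in replicate 2 (ratio 1.78, interval 1.24 to 2.57, adjusted p = 0.0169, exact binomial test). Costimulatory genes were low, and the ligand gene Icosl (16 reads in replicate 1 and 6 reads in replicate 2, not called) was the only one tested.

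Because a long read can span a whole transcript, the members were also compared by intron chain, the exact set of introns in a read. Full-splice reads are those outside truncated models and models classed as genomic. They numbered 20 or more per library in 11 members with more than 1 chain. The leading chain of 0 of these 11 members differed in share between the libraries by a two-sided Fisher's exact test, and 0 had an unadjusted p under 0.05. Over all genes the same test called 0.125% of 4817, so 0 calls among 11 do not set these members apart. The 11 include Cd74, H2-Ab1 and H2-D1, whose levels differed between the libraries.

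**Figure D4:**
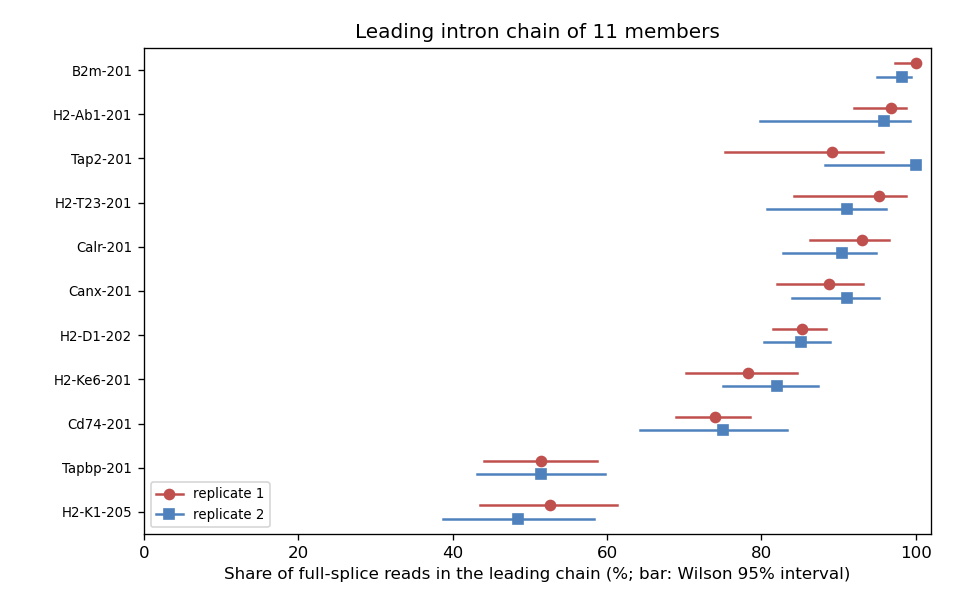
Share of full-splice reads in the leading intron chain of 11 members, in percent, with Wilson 95% intervals, circles for replicate 1 and squares for replicate 2. The intervals of the libraries overlap for each gene, and H2-K1 and Tapbp stand near 50% while B2m and H2-Ab1 stand above 95%.

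Cd74 was read mainly as 2 chains. Cd74-201, with 8 exons, made up 74.0% of full-splice reads in replicate 1 (242 of 327) and 75.0% in replicate 2 (57 of 76). Cd74-202, with 9 exons, made up 22.0% (72 reads) and 23.7% (18 reads). It adds an exon of 192 bases in the coding part, which is known to encode an inhibitor domain for cysteine proteases. A difference in this split was not detectable (Fisher's exact test, unadjusted p = 1.00), with Wilson 95% intervals for Cd74-201 of 69.0% to 78.5% in replicate 1 and 64.2% to 83.4% in replicate 2.

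H2-K1 was split between H2-K1-205 with 62 reads in replicate 1 and 47 reads in replicate 2 and H2-K1-201 with 39 reads in replicate 1 and 35 reads in replicate 2. H2-K1-205 held 52.5% of full-splice reads in replicate 1 and 48.5% in replicate 2. The chains differ by 27 coding bases (9 codons) at the start of the last exon, in the part for the cytoplasmic tail (chr17:33996477-33996503, minus strand). The segment is printed in capitals with 12 bases on each side from the GENCODE M21 transcripts, to show what the longer tail adds.
H2-K1-201: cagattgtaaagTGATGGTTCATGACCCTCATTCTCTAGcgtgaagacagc
H2-K1-205: cagattgtaaagcgtgaagacagc

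Tapbp was split in a like way by only 3 coding bases at the start of its seventh exon (chr17:33926627-33926629, plus strand). Tapbp-201, which keeps them, had 90 reads in replicate 1 and 70 reads in replicate 2, and Tapbp-206, which lacks them, had 77 reads in replicate 1 and 58 reads in replicate 2. The share of Tapbp-201 was 51.4% in replicate 1 and 51.5% in replicate 2. The 3 bases are in capitals.
Tapbp-201: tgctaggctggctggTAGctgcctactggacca
Tapbp-206: tgctaggctggctggctgcctactggacca

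H2-D1 was read mainly as H2-D1-202, with 348 of 408 full-splice reads (85.3%) in replicate 1 and 228 of 268 (85.1%) in replicate 2. It also had the most reads in chains outside the annotation, 5 of which had at least 5 reads. The most frequent (16 reads in replicate 1 and 10 reads in replicate 2) starts exon 3 at an unannotated acceptor and loses its first 114 bases, a multiple of 3 in the part for the second heavy chain domain (chr17:35263839-35263952, plus strand).
H2-D1 bases lost: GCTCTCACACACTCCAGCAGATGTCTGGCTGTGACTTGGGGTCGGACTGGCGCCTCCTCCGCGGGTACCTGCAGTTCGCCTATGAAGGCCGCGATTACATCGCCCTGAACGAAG

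The next H2-D1 chain (15 reads in replicate 1 and 7 reads in replicate 2) starts exon 6 at an acceptor 15 bases upstream that H2-D1-201 uses, in a new combination (chr17:35266467-35266481, plus strand). The gained bases are in capitals with 12 bases of the exons on each side, as in H2-D1-201.
H2-D1 bases gained: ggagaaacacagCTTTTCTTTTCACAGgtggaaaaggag
A further chain (5 reads in replicate 1 and 4 reads in replicate 2) extends exon 5 by 45 bases and skips the 33 bases of exon 6. Retained introns of 190 bases (5 reads in replicate 1 and 1 read in replicate 2) and 178 bases (2 reads in replicate 1 and 3 reads in replicate 2) made up the others. Both libraries held each of these 5 chains. Whether CAST alleles aligned to the C57BL/6 reference give rise to any of them was not tested.

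H2-Q10 had 3 full-splice reads in replicate 1, too few for a test, against 67 in replicate 2, and its chains are given as a description only. H2-Q10-201 had 1 read in replicate 1 and 35 reads in replicate 2. An unannotated chain that skips a 33-base exon outside the coding span had 1 read in replicate 1 and 22 reads in replicate 2. H2-Ke6 had 24 reads of an unannotated chain, 12 in each library, whose first exon is 21 bases longer, at a donor that H2-Ke6-202 uses (chr17:34027981-34028001, minus strand). The 21 bases, in capitals, add 7 codons in the coding span.
H2-Ke6 bases gained: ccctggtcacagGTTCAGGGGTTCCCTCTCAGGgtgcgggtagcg
Outside these genes, unannotated chains with at least 5 reads were found in Canx (6 reads in replicate 1 and 2 reads in replicate 2, with a first exon 36 bases shorter, outside the coding span) and in H2-K1 (3 reads in replicate 1 and 2 reads in replicate 2, with intron 2, of 187 bases, retained).

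**Figure D5:**
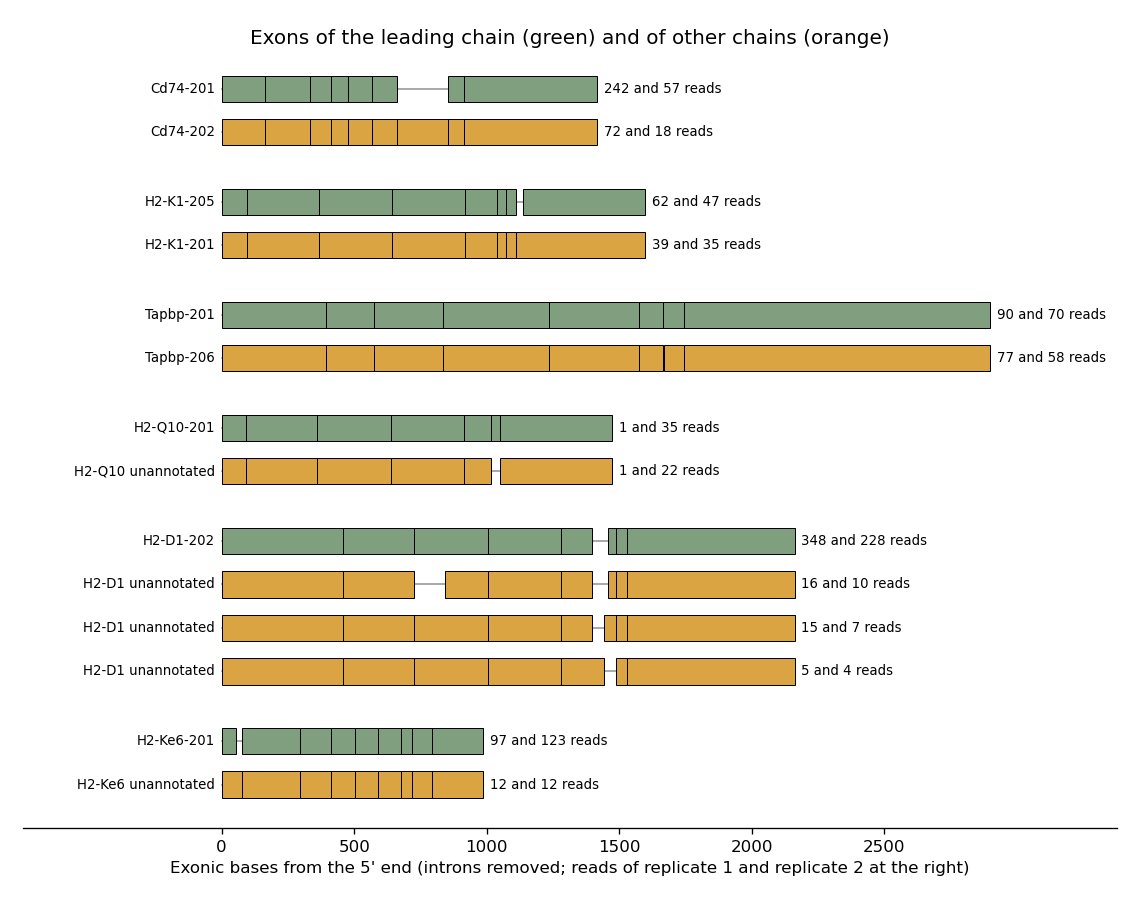
Exons of the leading chain (green) and of other chains (orange) of 6 members, drawn to scale along exonic bases from the 5′ end with introns removed, with reads of replicate 1 and replicate 2 at the right. Gaps bridged by a thin line are bases that a chain skips, such as the 192-base exon of Cd74, the 27 bases of H2-K1 and the 114 bases of H2-D1, and the 3 bases of Tapbp are only as wide as a line.

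The other members with enough reads were read nearly as a single chain. The leading chain held 100% of full-splice reads in replicate 1 and 98.3% in replicate 2 for B2m, 96.8% and 95.8% for H2-Ab1, and 95.2% and 91.1% for H2-T23. It held 93.0% in replicate 1 and 90.4% in replicate 2 for Calr, 88.8% and 91.1% for Canx, and 89.2% and 100% for Tap2. Reads in known models made up 79.7% of member reads in replicate 1 (Wilson 95% interval 78.0% to 81.3%) and 73.5% in replicate 2 (71.3% to 75.6%), against 76.3% and 73.7% over all annotated genes. Single-exon reads made up 3.77% of member reads in replicate 1 and 7.62% in replicate 2, against 11.2% and 14.5% over all annotated genes.

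The single-exon reads were concentrated at the 3′ ends of a few members. H2-K1 had 23 reads in replicate 1 and 32 reads in replicate 2 in a model of 90 bases (chr17:33996017-33996106), which is 13.7% and 21.2% of its reads. Calr had 13 reads in replicate 1 and 23 reads in replicate 2 in a model of 747 bases. Tapbp had 4 single-exon reads in replicate 1 and 17 in replicate 2, of which 13 lay in a model of 2507 bases at the 5′ end of the gene, where it overlaps Zbtb22 on the same strand. That model ends at the base where the annotation of Zbtb22 ends, so the gene of origin of these reads is uncertain.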

How the data were processed

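Long-read RNA-seq of adrenal gland was measured in 2 libraries of 1 group. The authors deposited 1 table per library of read counts per transcript model, whole numbers without normalization, with the exons of each model in an annotation file. Per the file headers the reads refer to mm10 and GENCODE M21, and the models were made with TALON, which groups reads by intron chain and classes each chain as known, truncated (incomplete splice match), a new combination of annotated sites, a new splice site or genomic. Which aligner, TALON version and model filters were used is not given in the sources used here.

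Counts were summed over all models of a gene. Reads on ERCC spike-ins (1.73% in replicate 1 and 1.80% in replicate 2) were left out, and the Lexogen spike-ins that the labels name were not analysed here. CPM used the remaining reads, of which 95.4% and 94.8% lay in annotated genes. With 1 group and 2 replicates there was no contrast that edgeR's quasi-likelihood test could fit, so the libraries were compared. For each gene with 10 or more reads in total, the reads of replicate 1 were set against that library's share of all reads in an exact binomial test (two-sided), and leading intron chains were compared with Fisher's exact test. Both were adjusted by Benjamini-Hochberg over all genes tested at a threshold of 0.05. They were also run on simulated reads with counting error only, which cannot show how they behave under further spread between libraries. Ratios have exact Clopper-Pearson intervals, shares have Wilson intervals, and a count of 0 is bounded by 3 reads. The counts carry no molecular identifiers, so intervals and bounds cover counting error only.

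Every member with at least 10 reads is named. Chains are described for members with at least 20 full-splice reads per library, with second chains of at least 10% and unannotated chains of at least 5 reads. H2-Q10 falls outside this rule, and its chains were described after their values were seen. The members, lists and rules were chosen with earlier results of these data known. Alternatives were TMM factors (edgeR 4.0.16), DESeq2 1.42.0 size factors, other denominators, other read filters and other sets of models. Known or multi-exon models alone were scaled to the reads in those models. Promoters came from RefSeq (GRCm38.p6), coding segments from GENCODE M21 transcripts, and the alignment used biopython 1.88. Python 3.11.15, scipy 1.17.1 and R 4.3.3 were used.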

Additional observations from a re-analysis of the deposited data

Results flagged for a closer look

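Reads on the strand opposite to a member appeared at 3 members above the 3 reads that a count of 0 allows, in both libraries, while no gene annotated on that strand there had reads. H2-D1 had 9 such reads in replicate 1 and 6 in replicate 2, B2m had 12 in replicate 1 and 9 in replicate 2, and Canx had 6 in replicate 1 and 8 in replicate 2. These reads entered none of the levels above, and their source was not tested.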

How the results depend on the processing

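The counts of members called were 9 with TMM and DESeq2 scaling and with reads in annotated genes as the denominator, 8 without the hepatocyte markers in the denominator or without a filter on reads, 7 with known or multi-exon models only, and 6 with a minimum of 50 reads. In each of these alternatives Cd74, H2-Ab1, H2-Aa, H2-Eb1 and H2-D1 were called higher in replicate 1 and H2-Q10 higher in replicate 2. With TMM scaling, 872 genes of all tested were called, of which 208 (23.9%) stood higher in replicate 1 and 664 in replicate 2. Without it 52.5% of the calls were higher in replicate 1, and the median log2 ratio over all genes was 0.16, against 0.00 with TMM. H2-Ea-ps lost its call with TMM, DESeq2, the denominator without hepatocyte markers, no filter and multi-exon models, and H2-Ke6 gained a call with TMM and DESeq2. The summed class II ratio ran from 3.96 to 4.55 over its alternatives, and the summed class I ratio moved to 1.12 with TMM and 1.11 with DESeq2. The number of members with a changed leading chain share was 0 in all 4 alternatives. The median level of the members was 7.61 CPM without replicate 1 and 14.5 CPM without replicate 2, and the share of known models was 73.5% without replicate 1 and 79.7% without replicate 2. No paired analysis was possible because the series holds a single group. At this depth, members with fewer than 10 reads could not be tested, and replicate 2 held as few as 3 reads of a called class II chain (H2-Ea-ps).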
